A study of Mus musculus with 10 samples.

Results

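Transcript levels of 10 immune checkpoint genes were followed across 3 groups of sorted mouse cells. The genes were chosen by name as ligands of the receptor PD-1, members of the B7 family and further checkpoint ligands or receptors: Cd274, Pdcd1lg2, Cd80, Cd86, Cd276, Vsir, Lgals9, Havcr2, Btla and Tnfrsf14. They are 10 of the 17603 genes with a value, and all 10 were found. The cells came from wild-type female C3H/HeN mice carrying tumors of SCC7, a mouse squamous carcinoma line that stands for head and neck cancer in the labels. They were sorted by flow cytometry as a population that the labels call EPC without spelling it out. The groups were tumor CD45+ (n = 4 libraries), splenic CD45+ (n = 3) and splenic CD45- (n = 3). The spleens were those of tumor bearers, so no group came from a mouse without a tumor. Age, tumor stage and the number of mice behind a library are not given in the labels.

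Checkpoint molecules set how strongly T cells respond. PD-L1 (Cd274) and PD-L2 (Pdcd1lg2) bind the inhibitory receptor PD-1, and CD80 and CD86 bind the activating receptor CD28 and the inhibitory receptor CTLA-4. VISTA (Vsir) and B7-H3 (Cd276) are further B7 relatives, galectin-9 (Lgals9) is a ligand of TIM-3 (Havcr2), and HVEM (Tnfrsf14) is the ligand of BTLA (Btla). Macrophages and dendritic cells are textbook carriers of several of these ligands, and B cells are known for BTLA.

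The values name no unit and were read as FPKM, fragments per kilobase of transcript scaled to the number of mapped fragments. On that reading levels can be set side by side between genes. Depth was about 17700000 to 20900000 fragments per library, judged from the smallest steps between low values, which puts a gene of 1 kilobase at 1 FPKM at roughly 17.7 to 20.9 fragments. The step was searched only within a preset range, on 113 to 176 low values a library. Those values lined up weakly with it (mean cosine 0.20 to 0.48). Depth, fragment numbers and ratios to counting noise are therefore rough. Tests were run with limma on log2(FPKM + 1) across all genes that reached 1 FPKM in 3 or more libraries of the comparison. A gene was called when its Benjamini-Hochberg adjusted p was below 0.05, and errors beside log2 differences are standard errors. The labels do not tell whether replicates are separate mice, so these p-values measure only the spread between libraries, which may be technical.

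Some libraries stood apart. Splenic CD45+ replicate 2 had the lowest summed B cell markers (150 FPKM, against 1210 and 1360 in the other splenic CD45+ libraries). Its monocyte and macrophage markers summed to 1470 FPKM, against 4200 in replicate 3 and 4530 in replicate 1. Most of each sum was Lyz2, at 1275.91, 3301.97 and 2513.68 FPKM in replicates 2, 3 and 1. Csf1r was further apart, at 9.39, 40.46 and 201.25 FPKM, and so was C1qa, at 16.37, 108.31 and 460.52 FPKM. Itgam and Ly6c2, like Lyz2, were highest in replicate 3. Tumor replicate 1 differed from tumor replicates 2 to 4, with 10.4% of its FPKM in globin genes against 1.80% to 1.87% and a granulocyte marker sum of 1770 FPKM against 67.9 to 75.4 FPKM. Tumor replicates 2 to 4 differed from each other by only 1.59 to 3.42 times the median expected from counting noise at the estimated depth, against 26.7 to 28.0 times in pairs with replicate 1. Whether they are separate animals was not tested, and each count was also taken with these 3 libraries averaged into 1 sample.

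The sorted name was checked against marker genes. The erythroid transcription factor Gata1 lay at 0 to 0.27 FPKM in tumor CD45+ libraries, against 109 to 223 FPKM in splenic CD45+ and 230 to 264 FPKM in splenic CD45- libraries. Of 12 erythroid markers, 5 (Hbb-bs, Klf1, Epor, Gata1 and Ermap) were below 1 FPKM in every tumor library. The list summed to 6000 to 41000 FPKM in tumor libraries, against 130000 to 277000 FPKM in splenic CD45+ and 326000 to 417000 FPKM in splenic CD45- libraries. Most of each sum was Hba-a1. All 13 monocyte and macrophage markers reached 1 FPKM in every tumor library, with sums of 24500 to 45900 FPKM, against 1470 to 4530 and 68.6 to 122 FPKM in splenic CD45+ and splenic CD45- libraries. The 13 granulocyte markers summed to 67.9 to 1770 FPKM in tumor CD45+ libraries, against 23200 to 77800 and 392 to 527 FPKM in splenic CD45+ and splenic CD45- libraries, and all 13 reached 1 FPKM in every splenic CD45+ library. Their part in the differences from splenic CD45+ libraries was not tested. Ptprc, which encodes CD45, averaged 83.3 FPKM in tumor CD45+, 153 FPKM in splenic CD45+ and 2.17 FPKM in splenic CD45- libraries. The tumor group is therefore called here by its gate and tissue only. In bulk samples of this kind, fewer cells of a type and less RNA per cell cannot be told apart.

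Tumor CD45+ libraries held more Cd80, Cd86, Cd276, Lgals9 and Havcr2 transcript than splenic CD45+ libraries, and less Btla and Tnfrsf14. These 7 calls came from 9 tested members, as 5 higher and 2 lower, while 37.7% and 26.0% of all 11463 tested genes were called higher and lower. Cd276 and Btla passed the filter through 1 group only and could be called in 1 direction only. Without splenic CD45+ replicate 2 the counts were 5 higher and 3 lower, and without tumor replicate 1, or with tumor replicates 2 to 4 averaged, 4 higher and 2 lower. Globin removal moved the share of higher genes among all calls to 41.1% and a common sum to 70.3%, against 59.2% in the deposited scaling.

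Tumor CD45+ against splenic CD45- libraries gave 7 members higher and 1 lower of 8 tested, where 67.5% and 22.5% of 11208 genes were called higher and lower. Tissue and gate differ together in this comparison and cannot be told apart. Cd274, Cd80, Cd86, Cd276 and Havcr2 passed the filter through the tumor libraries only. Within the spleen, CD45+ libraries had more Cd86 and Btla than CD45- libraries, and both passed the filter through the CD45+ libraries only, so that they could be called in 1 direction only. Vsir was called higher as deposited but not with trimmed-mean or median-ratio scaling or without globin genes, which makes 3 higher of 5 tested members, where 50.5% of 9728 genes were called higher and 5.02% lower. No member was called lower there by limma, nor had one a lower level at an unadjusted p below 0.05 (0 of 5), while 2 were called lower with trimmed-mean and 2 with median-ratio scaling. The median log2 difference of all genes in the spleen was 0.673 as deposited and -0.14 with trimmed-mean scaling, and in tumor CD45+ against splenic CD45- libraries it was 1.06 and 0.07. Trimmed-mean scaling also moved the share of higher genes among all calls to 52.1% in the spleen, against 91.0% as deposited, and to 51.6%, against 75.0%, in tumor CD45+ against splenic CD45- libraries.

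**Figure D1:**
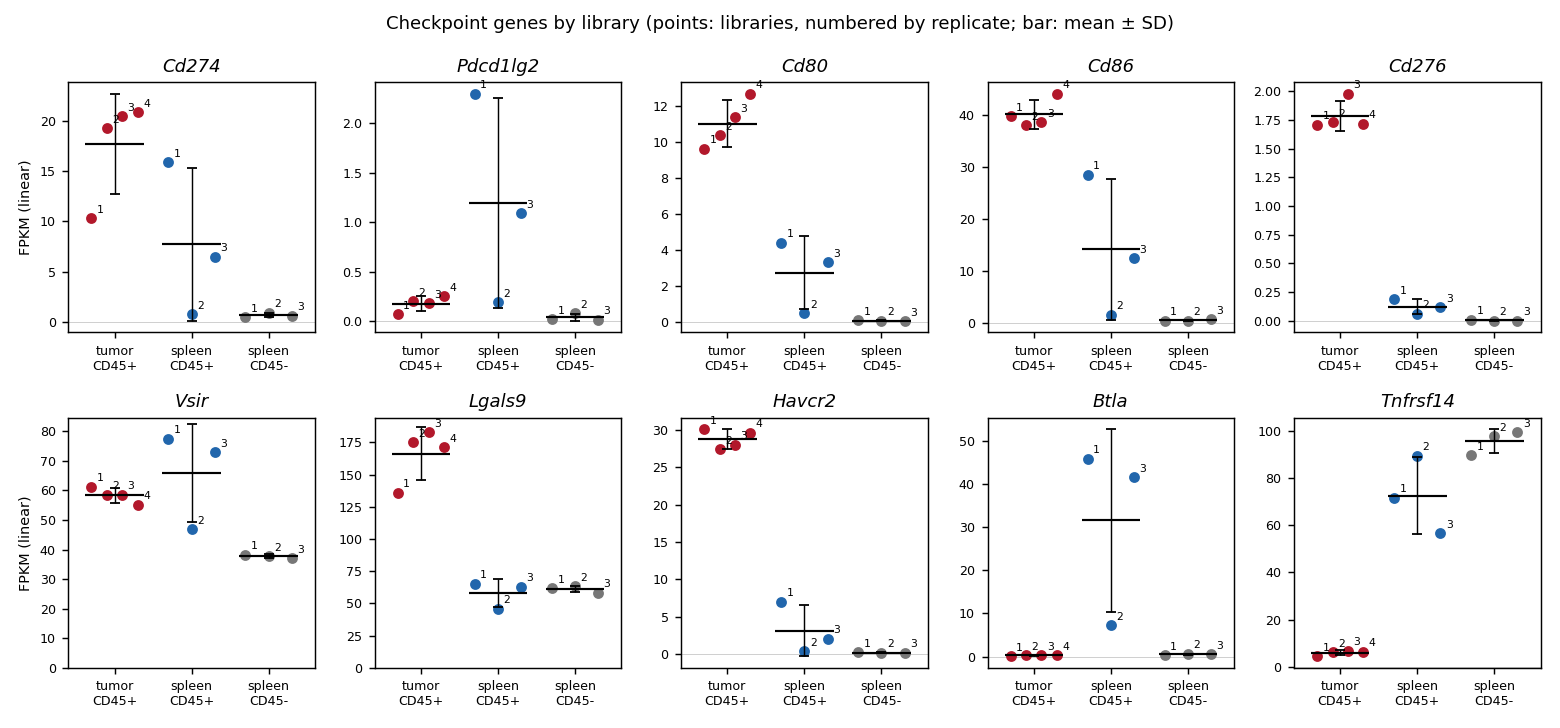
FPKM of the 10 checkpoint genes (linear axes, 1 panel a gene) in each library, as points numbered by replicate for tumor CD45+ (n = 4), splenic CD45+ (n = 3) and splenic CD45- (n = 3), with the group mean as a horizontal line and its SD as the error bar. Havcr2 sits at 27.4 to 30.1 FPKM in tumor libraries, Btla is highest in splenic CD45+ libraries, and Tnfrsf14 lies at 4.42 to 6.77 FPKM in tumor libraries and above 50 FPKM in every splenic one.

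Cd274 encodes PD-L1, the ligand through which many cells quiet PD-1-bearing T cells (Entrez gene 60533, chromosome 19 of GRCm38.p6, 29362107 to 29388095). It had 10.3, 19.3, 20.5 and 20.9 FPKM in tumor CD45+ libraries, against 15.9, 0.74 and 6.49 FPKM in splenic CD45+ and 0.45, 0.88 and 0.60 FPKM in splenic CD45- libraries. Tumor and splenic CD45+ libraries overlapped, because tumor replicate 1 was below splenic CD45+ replicate 1. The group means were 17.8 ± 5.05 FPKM in tumor CD45+ (SD, n = 4) and 7.70 ± 7.64 FPKM in splenic CD45+ libraries (SD, n = 3). That log2 difference, 1.59 ± 0.69, did not pass the test (limma, adjusted p = 0.0769). It was 0.69 without splenic CD45+ replicate 2 (adjusted p = 0.14) and 2.33 without splenic CD45+ replicate 1, where it passed (adjusted p = 0.0108). Over all alternatives its adjusted p ran from 0.0108 to 0.282.

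Against splenic CD45- libraries, which averaged 0.643 ± 0.218 FPKM (SD, n = 3), Cd274 was higher in tumor CD45+ libraries by 3.47 ± 0.23 on the log2 scale (limma, adjusted p = 5.35e-07). All 4 tumor libraries were above all 3 splenic CD45- libraries. At least 83.5% of the summed Cd274 value came from 1 curated RefSeq model in every library.

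Pdcd1lg2 encodes PD-L2, the second PD-1 ligand (Entrez gene 58205, chromosome 19, 29410919 to 29472927). Its levels were 0.07, 0.20, 0.18 and 0.25 FPKM in tumor CD45+ libraries, against 2.30, 0.19 and 1.09 FPKM in splenic CD45+ and 0.02, 0.08 and 0.01 FPKM in splenic CD45- libraries. Tumor and splenic CD45+ libraries overlapped through splenic CD45+ replicate 2. With a transcript of 1649 bases, these levels stand for roughly 2.4 to 7.8 fragments in a tumor library and 6.0 to 67.2 in a splenic CD45+ library. Pdcd1lg2 passed the filter in no comparison and was not tested. In the tumor libraries Cd274 averaged 17.8 FPKM and Pdcd1lg2 0.175 ± 0.0759 FPKM (SD, n = 4), both per length.

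Promoters of the PD-1 ligand Cd274 and of the 2 members that hold an interferon-response element core (Lgals9 and Tnfrsf14) are shown here to place the matches described below them. Each runs 5′ to 3′ on the gene's own strand, from 250 bases before to 50 after the RefSeq start site (GRCm38.p6), and capitals mark the motif matches.
Cd274, chr19:29367188-29367487, plus strand: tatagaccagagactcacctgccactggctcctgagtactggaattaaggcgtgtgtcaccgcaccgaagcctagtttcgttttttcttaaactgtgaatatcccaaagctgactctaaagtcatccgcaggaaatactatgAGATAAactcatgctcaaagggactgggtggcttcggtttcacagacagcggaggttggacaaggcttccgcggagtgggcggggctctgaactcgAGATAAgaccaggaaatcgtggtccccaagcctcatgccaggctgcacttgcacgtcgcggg
Lgals9, chr11:78984875-78985174, minus strand: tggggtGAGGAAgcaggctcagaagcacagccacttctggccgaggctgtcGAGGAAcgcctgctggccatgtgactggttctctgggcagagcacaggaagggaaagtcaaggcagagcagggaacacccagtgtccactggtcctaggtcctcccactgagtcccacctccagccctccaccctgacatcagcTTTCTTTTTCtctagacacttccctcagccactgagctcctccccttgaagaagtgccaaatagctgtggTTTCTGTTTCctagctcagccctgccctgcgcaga
Tnfrsf14, chr4:154928028-154928327, minus strand: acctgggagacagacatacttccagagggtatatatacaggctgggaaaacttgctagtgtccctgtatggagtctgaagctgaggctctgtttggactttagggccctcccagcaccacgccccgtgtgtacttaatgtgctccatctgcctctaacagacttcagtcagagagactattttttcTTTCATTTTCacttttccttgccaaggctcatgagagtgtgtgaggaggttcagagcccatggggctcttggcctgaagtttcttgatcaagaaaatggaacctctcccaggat

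Matches are given for only 3 of the motifs searched, on both strands of the 9 members with a promoter in the RefSeq table, all but Cd86. The interferon-response element core (GAAA, any 2 bases, GAAA) was found in Lgals9 at -55 and 15 and in Tnfrsf14 at -64 from the start site, against 3.4% of 32851 promoters of this length. AGATAA, a core bound by GATA factors, was found in Cd274, at -108 and -12, and in Pdcd1lg2, against 11.2% of promoters. GAGGAA, a core bound by PU.1, was found in Btla, Cd276, Havcr2, Lgals9 and Pdcd1lg2, against 28.3%. No overlap between matches of different motifs was present in the 3 promoters shown. These matches describe letters in a 300-base window and say nothing of binding. The loci of Cd274 and Tnfrsf14 extend upstream of the windows shown, and the start sites of predicted models were not looked at.

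Cd80 encodes B7-1, the higher-affinity ligand of CTLA-4 (Entrez gene 12519, chromosome 16, 38457430 to 38495958). Its levels were 9.65, 10.4, 11.4 and 12.7 FPKM in tumor CD45+ libraries, against 4.41, 0.50 and 3.33 FPKM in splenic CD45+ and 0.12, 0.09 and 0.07 FPKM in splenic CD45- libraries. The 3 groups did not overlap. Cd80 was higher in tumor CD45+ than in splenic CD45+ libraries by 1.87 ± 0.41 on the log2 scale (limma, adjusted p = 0.00472), or 4.02-fold between mean FPKM. The call was kept under every alternative run, with an adjusted p of 0.000163 to 0.046. From splenic CD45- libraries the log2 difference was 3.46 ± 0.10 (limma, adjusted p = 1.64e-09).

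Cd86 encodes B7-2, the CD28 ligand that antigen-presenting cells carry at rest (Entrez gene 12524, chromosome 16, 36568956 to 36666158). It had 39.83, 38.02, 38.57 and 44.09 FPKM in tumor CD45+ libraries, against 28.5, 1.54 and 12.4 FPKM in splenic CD45+ and 0.42, 0.43 and 0.67 FPKM in splenic CD45- libraries. The groups did not overlap, but splenic CD45+ libraries were spread from 1.54 to 28.5 FPKM. The log2 difference of 2.04 ± 0.71 between tumor CD45+ and splenic CD45+ libraries passed (limma, adjusted p = 0.036) and was 1.05 without splenic CD45+ replicate 2 (adjusted p = 0.011). The call was lost without splenic CD45+ replicate 3 (adjusted p = 0.0645), without any 1 tumor library (0.0663 to 0.0825), without the filter (0.0589), without globin genes (0.0981) and with tumor replicates 2 to 4 averaged (0.139).

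Within the spleen Cd86 was higher in CD45+ than in CD45- libraries by 2.74 ± 0.79 (limma, adjusted p = 0.0204), by 3.73 without splenic CD45+ replicate 2. This call was lost without splenic CD45+ replicate 3 (adjusted p = 0.0751), without splenic CD45- replicate 1 (0.0707) or 2 (0.0573), and without the filter (0.0556). Between tumor CD45+ and splenic CD45- libraries the log2 difference was 4.77 ± 0.09 (limma, adjusted p = 2.07e-10).

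Cd276 encodes B7-H3, a B7 relative known from many tumors and stromal cells, whose receptor is not settled (Entrez gene 102657, chromosome 9, 58524300 to 58555033). Its levels were low, at 1.71, 1.73, 1.98 and 1.72 FPKM in tumor CD45+ libraries, against 0.19, 0.06 and 0.12 FPKM in splenic CD45+ and 0.01, 0 and 0 FPKM in splenic CD45- libraries. With a transcript of 3603 bases these levels stand for roughly 117 to 148 fragments in a tumor library and 4.1 to 12.1 in a splenic CD45+ library. All tumor libraries were above all splenic ones. The log2 difference was 1.31 ± 0.10 from splenic CD45+ libraries (limma, adjusted p = 2.14e-05) and 1.47 ± 0.06 from splenic CD45- libraries (limma, adjusted p = 2.72e-08), both understated by the added 1 FPKM.

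Summed fibroblast and epithelial markers moved with Cd276, and so did the monocyte and macrophage sums given above. The 7 fibroblast markers summed to 143 to 199 FPKM in tumor CD45+ libraries, against 0.15 to 0.51 FPKM in splenic CD45+ and 0.05 to 2.06 FPKM in splenic CD45- libraries, and 6 of the 7 reached 1 FPKM in every tumor library. The 9 epithelial and carcinoma markers summed to 313 to 406 FPKM in tumor CD45+ libraries, against 1.13 to 4.96 and 0.09 to 0.89 FPKM in splenic CD45+ and splenic CD45- libraries. Krt8 (208 to 239 FPKM) and Krt18 (95.4 to 164 FPKM) carried that sum, and 6 of the 9 markers were below 1 FPKM in every tumor library. Epcam went the other way, at 0.02 to 0.04 FPKM in tumor CD45+, against 1.18, 0.14 and 2.08 FPKM in splenic CD45+ libraries. Sfn was not higher in tumor libraries either, at 0.40 to 0.78 FPKM, against 2.99, 0.74 and 2.12 FPKM in splenic CD45+ libraries. The part of these cell types in the Cd276 difference was not tested.

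Vsir encodes VISTA, which is carried by myeloid cells and resting T cells (Entrez gene 74048, chromosome 10, 60346851 to 60430294). It was present in every group, at 61.3, 58.5, 58.5 and 55.2 FPKM in tumor CD45+ libraries, 77.5, 46.9 and 73.0 FPKM in splenic CD45+ libraries and 38.3, 37.8 and 37.1 FPKM in splenic CD45- libraries. Tumor and splenic CD45+ libraries overlapped, and both lay above splenic CD45- libraries. The log2 difference between tumor CD45+ and splenic CD45+ libraries was -0.14 ± 0.20 (limma, adjusted p = 0.56), and -0.36 without splenic CD45+ replicate 2, where it passed (adjusted p = 0.0102). It also passed without globin genes, at -0.60 (adjusted p = 0.0424), and was 0.12 with a common sum.

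The Vsir differences from splenic CD45- libraries depended on the scaling. They were 0.62 ± 0.07 in tumor CD45+ libraries (limma, adjusted p = 2.54e-05) and 0.75 ± 0.23 in splenic CD45+ libraries (limma, adjusted p = 0.0262) as deposited. With trimmed-mean scaling they were -0.63 (adjusted p = 0.000175) and -0.17 (adjusted p = 0.548). The splenic call was also lost when any 1 of 5 libraries was left out, every one but splenic CD45+ replicate 2 (adjusted p = 0.0731 to 0.0905). No direction is therefore drawn for Vsir between CD45+ and splenic CD45- cells.

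The 2 curated Vsir models differ by 1 codon, shown here because both were present in every library. The longer one has CAG at chr10:60367791-60367793 (plus strand, GRCm38.p6), in the coding part of exon 5 of 7, written in capitals within 20 bases on either side.
Longer Vsir model: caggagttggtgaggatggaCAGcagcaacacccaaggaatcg
Shorter Vsir model: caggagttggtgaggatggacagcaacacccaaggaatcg
The shorter model took 17% to 21.5% of the Vsir value in tumor CD45+ libraries, 20.7% to 23.0% in splenic CD45+ libraries and 19.7% to 21.4% in splenic CD45- libraries. The 3 ranges overlap, and the way reads were divided between models is unknown here.

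Lgals9 encodes galectin-9, a secreted lectin with paired carbohydrate-binding domains joined by a linker, and a ligand of TIM-3 (Entrez gene 16859, chromosome 11, 78962979 to 78984924). It was the most abundant of the 10 members in tumor CD45+ libraries, at 136, 175, 183 and 171 FPKM, against 65.3, 45.7 and 63.0 FPKM in splenic CD45+ and 61.8, 63.2 and 58.4 FPKM in splenic CD45- libraries. Every tumor library was above every splenic one, and the splenic groups overlapped. Lgals9 was higher in tumor CD45+ than in splenic CD45+ libraries by 1.51 ± 0.19 (limma, adjusted p = 0.000254), or 2.87-fold between means, and kept its call under every alternative run (adjusted p of 1.37e-05 to 0.0109).

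The Lgals9 difference of tumor CD45+ from splenic CD45- libraries was 1.42 ± 0.11 (limma, adjusted p = 1.66e-06), but 0.17 with trimmed-mean scaling, where it did not pass (adjusted p = 0.129). Within the spleen the difference of CD45+ from CD45- libraries was -0.09 ± 0.20 (limma, adjusted p = 0.729). It was -1.02 with trimmed-mean scaling (adjusted p = 0.00733) and -1.01 with median-ratio scaling (adjusted p = 0.0103), 0.29 with a common sum and 0.07 without splenic CD45+ replicate 2.

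Galectin-9 is known in forms that differ in the length of the linker, and the deposited values list 2 models. The longer model holds a coding exon of 93 bases (31 codons), exon 5 of 11 at chr11:78969714-78969806 on the minus strand of GRCm38.p6, which the shorter model lacks. It is given in capitals between 20 bases of the neighbouring exons.
Longer Lgals9 model: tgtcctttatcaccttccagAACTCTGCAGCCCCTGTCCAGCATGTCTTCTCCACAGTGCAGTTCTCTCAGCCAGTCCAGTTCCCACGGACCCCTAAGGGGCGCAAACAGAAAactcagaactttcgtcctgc
Shorter Lgals9 model: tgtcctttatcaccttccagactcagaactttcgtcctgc
The shorter model carried 98.2% to 98.9% of the Lgals9 value in tumor CD45+ libraries, 97.2% to 97.9% in splenic CD45+ libraries and 97.7% to 98.5% in splenic CD45- libraries. The model without the exon thus took nearly all of the value in all 10 libraries, but the way reads were divided between models is unknown here.

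Havcr2 encodes TIM-3, a receptor of exhausted T cells that is also carried by macrophages and dendritic cells (Entrez gene 171285, chromosome 11, 46454931 to 46481255). Its levels were 30.1, 27.4, 28.0 and 29.6 FPKM in tumor CD45+ libraries, against 6.99, 0.33 and 2.05 FPKM in splenic CD45+ and 0.22, 0.14 and 0.19 FPKM in splenic CD45- libraries. The 3 groups did not overlap. Havcr2 was higher in tumor CD45+ than in splenic CD45+ libraries by 3.22 ± 0.52 (limma, adjusted p = 0.00104), or 9.21-fold between means, and by 2.59 without splenic CD45+ replicate 2. It was higher than in splenic CD45- libraries by 4.65 ± 0.07 (limma, adjusted p = 8.65e-11), and both calls were kept under every alternative run.

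The order of Havcr2 levels in the splenic CD45+ libraries (replicate 1, then 3, then 2) was also that of Cd274, Cd80 and Cd86. The summed dendritic cell markers of those libraries stood in that order too, at 212, 103 and 18.7 FPKM, and so did those of monocytes and macrophages (4530, 4200 and 1470 FPKM), B cells (1360, 1210 and 150 FPKM), T and NK cells (401, 328 and 66 FPKM) and endothelium (41, 23.9 and 6.51 FPKM). The order is thus shared by the sums of 5 marker lists, but not by every marker in them. Pecam1 was the largest part of the endothelium sum, at 36.47, 18.47 and 3.21 FPKM in replicates 1, 3 and 2. Kdr and Vwf stood in that order too, while Erg (1.29, 3.92 and 2.15 FPKM) and Cdh5 (0.18, 0.27 and 0.05 FPKM) did not. The 13 T and NK cell markers summed to 7.58 to 52.2 FPKM in tumor CD45+ libraries, against 66.0 to 401 FPKM in splenic CD45+ and 20.2 to 20.9 FPKM in splenic CD45- libraries. Tumor replicate 1, with the lowest T and NK cell sum, had the highest Havcr2 level. The part of these cell types in the differences was not tested.

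Btla encodes an inhibitory receptor of B and T cells that is engaged by HVEM (Entrez gene 208154, chromosome 16, 45223705 to 45252895). It had 0.04, 0.29, 0.32 and 0.38 FPKM in tumor CD45+ libraries, against 45.9, 7.28 and 41.7 FPKM in splenic CD45+ and 0.29, 0.65 and 0.61 FPKM in splenic CD45- libraries. Splenic CD45+ libraries stood above both other groups, which overlapped. Btla was lower in tumor CD45+ than in splenic CD45+ libraries by a log2 difference of -4.35 ± 0.57 (limma, adjusted p = 0.000346). Within the spleen it was higher in CD45+ than in CD45- libraries by 4.08 ± 0.63 (limma, adjusted p = 0.0021), and by 4.89 without splenic CD45+ replicate 2. Tumor CD45+ against splenic CD45- libraries was not tested, since Btla was below 1 FPKM in all of them.

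Several marker lists were, like Btla, highest in splenic CD45+ libraries. The 9 B cell markers summed to 4.4 to 7.37 FPKM in tumor CD45+ libraries, against 1360, 150 and 1210 FPKM in splenic CD45+ replicates 1, 2 and 3 and 25.1 to 32.4 FPKM in splenic CD45- libraries, and 6 of the 9 were below 1 FPKM in every tumor library. Cd79a, a signalling chain of the B cell receptor, lay at 0.05 to 1.17 FPKM in tumor CD45+ libraries, against 593, 64.9 and 469 FPKM in splenic CD45+ replicates 1, 2 and 3. T and NK cell markers summed to 7.58 to 52.2 FPKM in tumor CD45+ libraries, against 401, 66 and 328 FPKM in splenic CD45+ replicates 1, 2 and 3. In splenic CD45- libraries they summed to 20.2 to 20.9 FPKM. Granulocyte markers were also highest in splenic CD45+ libraries. Their sums there, 23200, 32400 and 77800 FPKM in replicates 1, 2 and 3, did not follow the order of Btla. The part of these cell types in the Btla difference was not tested.

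Tnfrsf14 encodes HVEM, a TNF receptor family member that binds BTLA, CD160 and the cytokine LIGHT (Entrez gene 230979, chromosome 4, 154918487 to 154928620). It had 4.42, 6.29, 6.77 and 6.44 FPKM in tumor CD45+ libraries, against 71.6, 89.4 and 56.7 FPKM in splenic CD45+ and 89.8, 97.8 and 99.3 FPKM in splenic CD45- libraries. Every tumor library was below every splenic one, and the splenic groups were next to each other without overlapping. Tnfrsf14 was lower in tumor CD45+ than in splenic CD45+ libraries by a log2 difference of -3.39 ± 0.21 (limma, adjusted p = 6.84e-06), and lower than in splenic CD45- libraries by -3.80 ± 0.13 (limma, adjusted p = 5.28e-09). It was the most abundant member in splenic CD45- libraries.

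Within the spleen the Tnfrsf14 difference of CD45+ from CD45- libraries, -0.42 ± 0.21, did not pass (limma, adjusted p = 0.134). It passed without splenic CD45+ replicate 2, at -0.58 (adjusted p = 0.00682), with trimmed-mean scaling, at -1.35 (adjusted p = 0.00537), with median-ratio scaling, at -1.34 (adjusted p = 0.00284), and without globin genes, at -0.68 (adjusted p = 0.0222). Summed erythroid markers were 6000 to 41000 FPKM in tumor CD45+, 130000 to 277000 FPKM in splenic CD45+ and 326000 to 417000 FPKM in splenic CD45- libraries. Most of each sum was Hba-a1. In splenic CD45+ replicates 1, 2 and 3 the sums, 223000, 130000 and 277000 FPKM, stood in the reverse order of Tnfrsf14. Single markers differed, and Gata1, at 114.19, 222.74 and 108.61 FPKM there, stood in the same order as Tnfrsf14. The part of these markers in the Tnfrsf14 differences was not tested.

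The Tnfrsf14 difference sat in predicted transcript models. The deposited values list 7 models, of which 5 predicted ones summed to 1.08 to 1.74 FPKM in tumor CD45+ libraries, against 47.6 to 85.4 FPKM in splenic CD45+ and 77.8 to 94.6 FPKM in splenic CD45- libraries. The curated model and 1 further predicted model summed to 2.68 to 5.21 FPKM in tumor CD45+ libraries, against 4.02 to 9.03 and 4.75 to 12.01 FPKM in splenic CD45+ and splenic CD45- libraries, so that all 3 groups overlapped. This division into 5 and 2 models was made after the values were seen and is given as a description. With curated models alone the log2 difference between tumor CD45+ and splenic CD45+ libraries was 0.25 (limma, adjusted p = 0.667), and between tumor CD45+ and splenic CD45- libraries -0.20 (limma, adjusted p = 0.772). The reads behind each model were not analysed here.

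**Figure D2:**
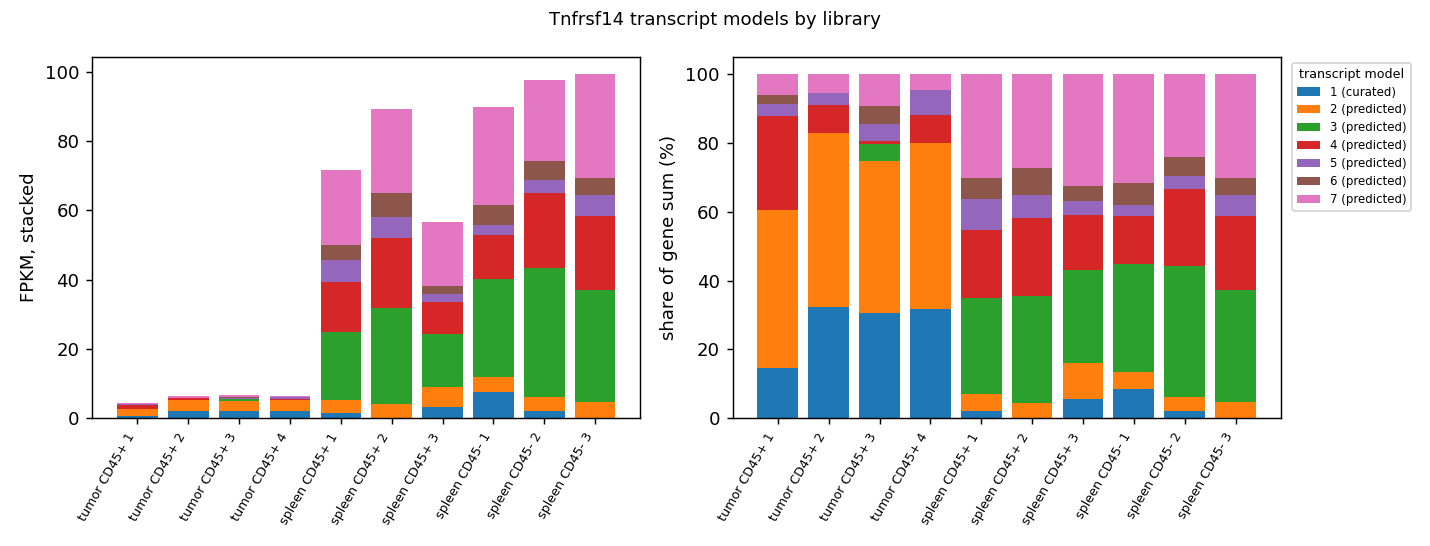
Tnfrsf14 by transcript model in each library, tumor CD45+ libraries left, then splenic CD45+ and splenic CD45- libraries, as stacked FPKM on the left and as percent of the gene's sum on the right, with 1 colour a model. Models 1 (curated) and 2 (predicted) sum to 2.68 to 5.21 FPKM in tumor libraries, and the 5 predicted models 3 to 7, which fill most of each splenic bar, to 1.08 to 1.74 FPKM.

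**Figure D3:**
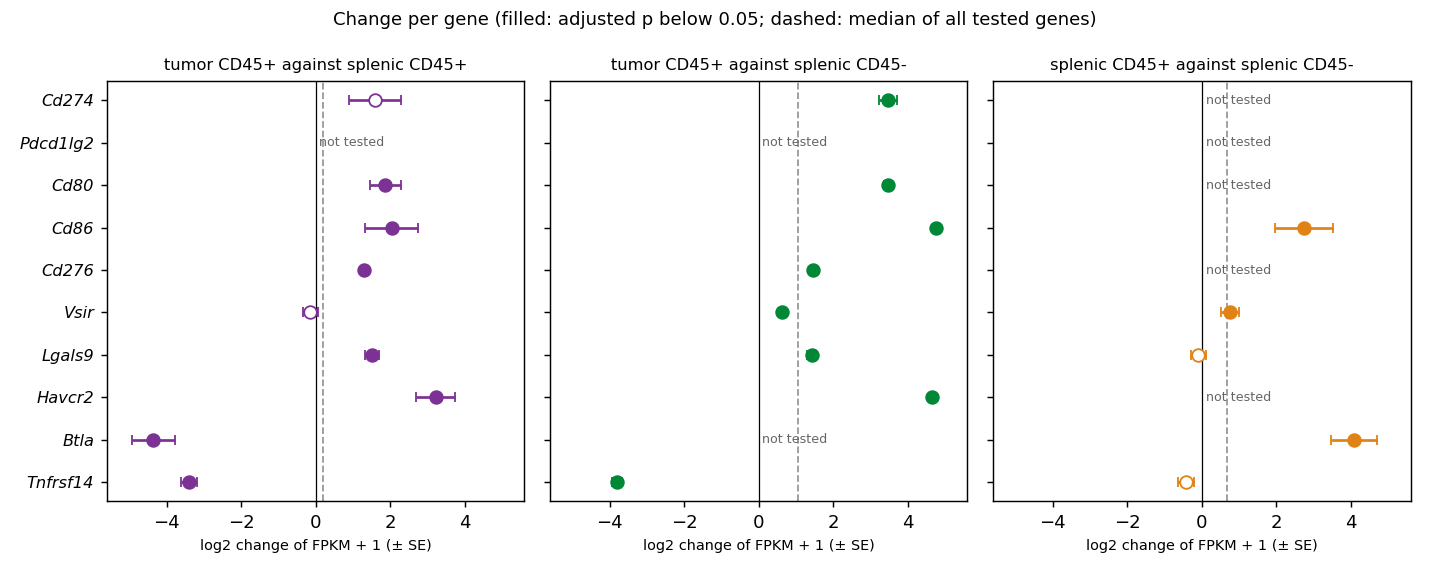
Log2 differences of the tested members (points, with ± SE as bars) for tumor CD45+ against splenic CD45+, tumor CD45+ against splenic CD45- and splenic CD45+ against splenic CD45- libraries, on log2(FPKM + 1). Filled points passed an adjusted p of 0.05 in limma, dashed lines mark the median of all tested genes, and the difference between tumor CD45+ and splenic CD45+ libraries runs between -4.35 for Btla and 3.22 for Havcr2.

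A list of 17 genes set up as partners of the members was read next. Binding to a member is not established for all of them, Trem1 and Trem2 included, and "partners" below names the list only. In tumor CD45+ against splenic CD45+ libraries 12 were tested, of which 4 were higher and 2 lower (against 37.7% and 26.0% of all genes), with a median log2 difference of -0.02 against 0.203 over all genes. In tumor CD45+ against splenic CD45- libraries 10 of 11 were higher and 1 lower (against 67.5% and 22.5% of all genes), 9 of them tested through the tumor libraries only. In the spleen 5 of 6 were higher in CD45+ than in CD45- libraries (against 50.5% of all genes), 4 of them tested through the CD45+ libraries only. The median log2 differences were 2.64 and 3.28 in these comparisons, against 1.06 and 0.673 over all genes, and the filter had a part in both.

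Receptor genes of T cells in this list were scarce, and so was Lta. Pdcd1, which encodes PD-1, had 0.02, 0.94, 1.07 and 1.00 FPKM in tumor CD45+ libraries, against 2.13, 0.31 and 1.21 FPKM in splenic CD45+ and 0.05 to 0.07 FPKM in splenic CD45- libraries (tumor against splenic CD45+, limma, adjusted p = 0.474). Ctla4 had 0.33, 2.35, 2.6 and 2.44 FPKM in tumor CD45+ libraries, against 5.33, 0.75 and 7.68 FPKM in splenic CD45+ libraries (limma, adjusted p = 0.294). Cd28, Icos, Lta (which encodes lymphotoxin-α) and Cd160 averaged 0.425, 0.492, 0.415 and 0.205 FPKM in tumor CD45+ libraries, against 3.02, 2.55, 3.75 and 2.20 FPKM in splenic CD45+ libraries, and were not tested. In tumor replicate 1, which had the lowest T and NK cell marker sum, Pdcd1, Ctla4, Cd28 and Icos were each at their lowest among tumor libraries.

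Of the 4 genes of this list called higher in tumor CD45+ than in splenic CD45+ libraries, Trem2 had the largest difference. Trem2, a lipid-sensing receptor of macrophages, averaged 510 ± 139 FPKM in tumor CD45+ (SD, n = 4), 1.63 ± 1.10 FPKM in splenic CD45+ and 0.24 ± 0.382 FPKM in splenic CD45- libraries (SD, n = 3 each). Its log2 difference between tumor CD45+ and splenic CD45+ libraries was 7.66 ± 0.32 (limma, adjusted p = 9.96e-07). Rgmb, a co-receptor of bone morphogenetic proteins that binds PD-L2, had 2.83 to 3.39 FPKM in tumor CD45+ libraries, against 1.35, 0.04 and 0.38 FPKM in splenic CD45+ libraries (limma, log2 difference 1.47, adjusted p = 0.00153). Trem1 and Vsig10 were also higher, by 1.04 (limma, adjusted p = 0.0475) and 0.49 (limma, adjusted p = 0.0083). Vsig10 passed the filter through the tumor libraries only, which fixed the direction it could be called in. Trem1 overlapped between these groups, at 18.2 to 21.3 FPKM in tumor CD45+ libraries and 19.4 FPKM in splenic CD45+ replicate 3.

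Ceacam1, a ligand of TIM-3, was lower in tumor CD45+ libraries, at 10.3 ± 1.47 FPKM (SD, n = 4), against 32.7 ± 10.8 FPKM in splenic CD45+ libraries (SD, n = 3, limma, adjusted p = 0.00121). Hmgb1, a nuclear protein that TIM-3 also binds, was lower too, at 143 ± 7.28 FPKM against 262 ± 129 FPKM (limma, adjusted p = 0.0458). Icosl, Tnfsf14 (which encodes LIGHT, the cytokine ligand of HVEM), Selplg (PSGL-1, described as a partner of VISTA) and Timd4 did not pass there, with 11.2, 5.79, 102 and 1.25 FPKM in tumor CD45+ libraries, against 22.0, 5.12, 69.1 and 8.86 FPKM in splenic CD45+ libraries. Igsf11, another described VISTA partner, was at most 0.02 FPKM in tumor CD45+ and 0.32 FPKM in splenic CD45+ libraries.

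Other co-signalling genes were read as a list of 45, of which 44 had a value. Tumor CD45+ libraries had 19 of 33 tested higher and 7 lower than splenic CD45+ libraries (against 37.7% and 26.0% of all genes), with a median log2 difference of 1.49 against 0.203 over all genes, and 7 of the 33 passed the filter through 1 group only. In tumor CD45+ against splenic CD45- libraries 27 of 30 were higher and 3 lower (against 67.5% and 22.5% of all genes), and in the spleen 16 of 20 were higher in CD45+ than in CD45- libraries (against 50.5% of all genes). In these comparisons 24 of the 30 and 13 of the 20 passed the filter through 1 group only, which fixed the direction they could be called in. The medians, 2.84 against 1.06 and 2.56 against 0.673 over all genes, are set in part by that filter.

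Tnfsf9, the ligand of the costimulatory receptor 4-1BB, averaged 106 ± 47.6 FPKM in tumor CD45+ (SD, n = 4), 0.363 ± 0.294 FPKM in splenic CD45+ and 0.04 ± 0.0693 FPKM in splenic CD45- libraries (SD, n = 3 each). Its log2 difference between tumor CD45+ and splenic CD45+ libraries was 6.13 ± 0.48 (limma, adjusted p = 2.34e-05). Tnfsf9 passed the filter through the tumor libraries only, which fixed the direction it could be called in. Lilrb4a, an inhibitory receptor of myeloid cells, had 705, 705, 725 and 799 FPKM in tumor CD45+ libraries, against 66.7, 27.3 and 95.4 FPKM in splenic CD45+ and 0.52 to 1.53 FPKM in splenic CD45- libraries (tumor against splenic CD45+, limma, log2 difference 3.69, adjusted p = 9.51e-05). It has a close paralog, between which the authors' counting could split reads.

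Nt5e, which encodes CD73 and makes adenosine, averaged 24.0 FPKM in tumor CD45+, 3.51 FPKM in splenic CD45+ and 0.03 FPKM in splenic CD45- libraries. It was called in all 3 comparisons, but against splenic CD45- libraries it passed the filter through the CD45+ libraries only. The filter thus fixed the direction of those calls. Entpd1, which encodes CD39 and acts before CD73, averaged 25.8, 10.4 and 0.26 FPKM in tumor CD45+, splenic CD45+ and splenic CD45- libraries, and the receptor gene Adora2b 7.61, 0.75 and 0.0233 FPKM. Nectin2 and Nectin3 encode adhesion proteins that engage co-signalling receptors of T and NK cells. They averaged 5.39 and 4.12 FPKM in tumor CD45+ libraries, against 0.49 and 0.15 FPKM in splenic CD45+ libraries. Both were called higher, but passed the filter through the tumor libraries only, which fixed the direction of the call. The Nectin pair moved with the same marker sums as Cd276, whose part was not tested.

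Inhibitory receptors of myeloid cells were among the genes with the smallest adjusted p-values against splenic CD45- libraries. Sirpa, the receptor of the CD47 signal, averaged 233 ± 4.48 FPKM in tumor CD45+ (SD, n = 4), 61.5 ± 57.5 FPKM in splenic CD45+ and 1.62 ± 0.128 FPKM in splenic CD45- libraries (SD, n = 3 each), with a log2 difference of 6.48 in tumor CD45+ against splenic CD45- libraries (limma, adjusted p = 4.51e-11). Lair1, Pirb and Cd200r1 averaged 58.4, 107 and 24.5 FPKM in tumor CD45+ libraries, against 0.34, 0.827 and 0.163 FPKM in splenic CD45- libraries. All 3 were called higher there, but each passed the filter through the tumor libraries only, which fixed the direction of the call. Pirb belongs to a family of close paralogs, which leaves its level uncertain. Cd48 is a ligand of the receptor 2B4, and Fgl2 is a secreted fibrinogen-like protein known for suppressing T cells. They averaged 161 and 72.7 FPKM in tumor CD45+ libraries, against 57.2 and 13.8 FPKM in splenic CD45+ libraries. Both were higher in all 3 comparisons. Against splenic CD45- libraries Fgl2 passed the filter through the CD45+ libraries only, which fixed the direction of those calls.

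Cd24a, which encodes a sialoglycoprotein abundant on maturing red cells and a ligand of Siglec receptors, went the other way. It averaged 7.75 ± 7.34 FPKM in tumor CD45+ (SD, n = 4), 3678 ± 876 FPKM in splenic CD45+ and 4583 ± 445 FPKM in splenic CD45- libraries (SD, n = 3 each). The log2 difference was -8.98 ± 0.50 from splenic CD45+ libraries (limma, adjusted p = 4.03e-06) and -9.32 ± 0.46 from splenic CD45- libraries (limma, adjusted p = 6.06e-08). Tumor replicate 1, with the most globin, had 18.8 FPKM and the other tumor libraries 3.98 to 4.23 FPKM.

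**Figure D4:**
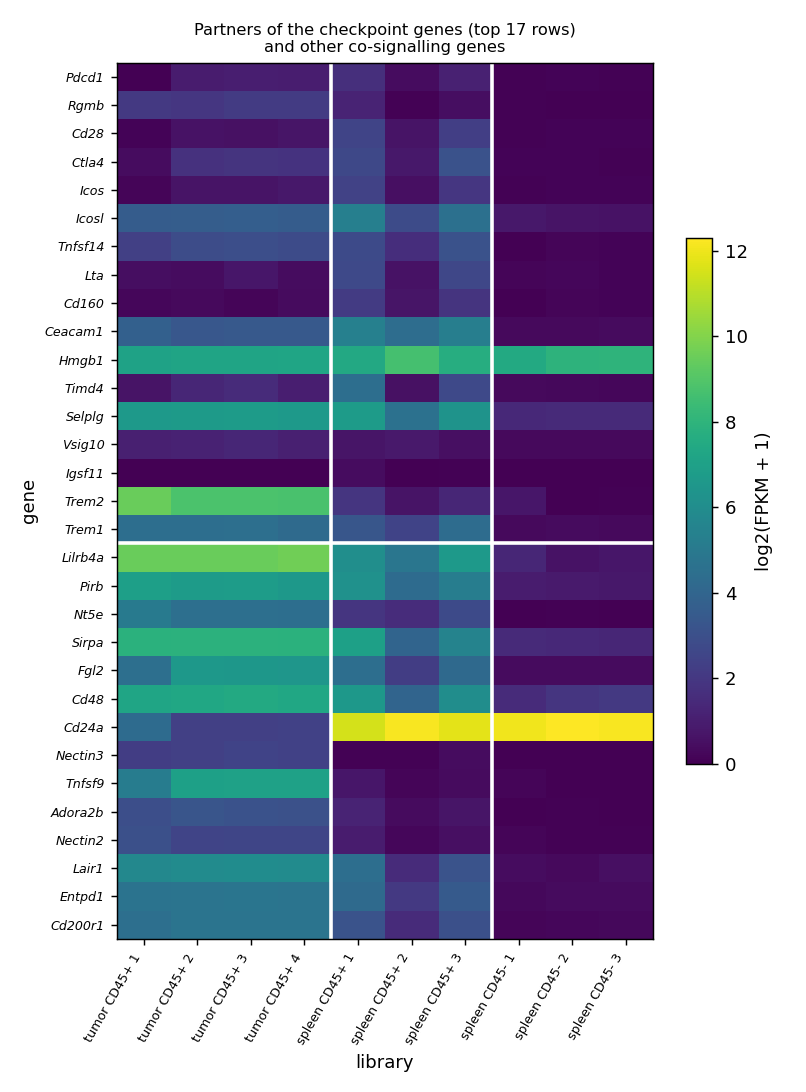
Levels of the 17 genes listed as partners (top rows) and of the named co-signalling genes (lower rows) as log2(FPKM + 1) by colour in each library, with tumor CD45+ libraries on the left, splenic CD45+ libraries in the middle and splenic CD45- libraries on the right. Trem2 (430 to 717 FPKM) and Lilrb4a (705 to 799 FPKM) stand out in tumor libraries, and Cd24a is bright in all splenic ones.

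Genes known to act on PD-L1 were read as a list of 30. Tumor CD45+ libraries had 9 of 30 tested higher and 5 lower than splenic CD45+ libraries (median log2 difference 0.371 against 0.203 over all genes), which is less than the 37.7% and 26.0% of all genes called in each direction. Against splenic CD45- libraries, 22 were higher in tumor CD45+ libraries and 4 lower (against 67.5% and 22.5% of all genes, median 1.32 against 1.06), and in the spleen 16 of 28 were higher in CD45+ than in CD45- libraries (against 50.5% of all genes, median 0.913 against 0.673).

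Socs3, a feedback inhibitor of JAK-STAT signalling, had 142, 203, 211 and 191 FPKM in tumor CD45+ libraries, against 27.9, 4.11 and 9.02 FPKM in splenic CD45+ and 1.18 to 1.61 FPKM in splenic CD45- libraries (tumor against splenic CD45+, limma, log2 difference 4.03, adjusted p = 0.000328). Hif1a, the hypoxia-inducible transcription factor, averaged 47.8, 13.0 and 0.977 FPKM in tumor CD45+, splenic CD45+ and splenic CD45- libraries, and Ifngr2, a chain of the interferon-γ receptor, 64.2, 18.5 and 0.827 FPKM. Both were higher in tumor CD45+ than in splenic CD45+ libraries (limma, adjusted p = 0.00205 and 0.0039). Cmtm4, which with Cmtm6 stabilises PD-L1 protein, was higher at 3.53 FPKM against 0.81 FPKM (adjusted p = 0.00132), while Cmtm6 had 36.4 FPKM in tumor CD45+ and 29.2 FPKM in splenic CD45+ libraries (adjusted p = 0.257).

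Jak2, a kinase of the interferon-γ receptor, was lower in tumor CD45+ libraries, at 9.36 ± 1.76 FPKM (SD, n = 4), against 32.9 ± 1.79 FPKM in splenic CD45+ and 28.5 ± 7.54 FPKM in splenic CD45- libraries (SD, n = 3 each). Its log2 difference from splenic CD45+ libraries was -1.73 ± 0.18 (limma, adjusted p = 9.15e-05). Ifngr1, Stat3, Nfkb1 and Myc averaged 53.8, 38.1, 29.6 and 27.4 FPKM in tumor CD45+ libraries, against 51.9, 21, 27.6 and 34.1 FPKM in splenic CD45+ libraries, and none of these 4 passed there. All 4 were higher in each CD45+ group than in splenic CD45- libraries, which averaged 2.19, 1.31, 1.56 and 2.78 FPKM.

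Genes whose levels ran most like those of 3 members were ranked among 11540 genes by Pearson's r of log2(FPKM + 1) over the 10 libraries. These points fall into 3 groups that share tissue and gate, so r describes the group pattern and carries no test. Closest to Cd274 were Tor1aip1 (r = 0.996), Gpr132 (r = 0.994) and Prkca (r = 0.994). Closest to Havcr2 were Maf (r = 0.999), Dbndd2 and Tmem86a (r = 0.998 each). Closest to Cd86 were Icam1 (r = 0.998), Hmox1 (r = 0.998) and Limk1 (r = 0.997). Among the members themselves, Cd274 was nearest to Cd86 (r = 0.982) and Havcr2 to Cd80 (r = 0.980), and Tnfrsf14 ran against Havcr2 (r = -0.949).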

How the data were processed

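RNA-seq libraries of 10 sorted samples were used. The authors deposited 1 table a library, with a value for 61685 RefSeq mRNA models. Neither headers nor labels name a unit. The values were read as deposited FPKM because, multiplied by transcript length, those of the 23223 models with a known length sum to about 953307 to 1137767 in every library. Models without a known length are not in that sum, so the match is partial and the unit is inferred. Per the submitters' processing notes, the build used was GRCm38.p6. No aligner, quantifier or strand setting is stated in the sources used here. Total RNA was extracted with TRIZOL by a sequencing company, per the labels' protocols.

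Models were summed per gene through a RefSeq table (GRCm38.p6), which named 60167 of them and gave 17603 genes. Fold changes are on log2(FPKM + 1), which understates low genes. Each comparison used limma 3.58.1 in R 4.3.3 with an intensity trend, only the libraries compared and no covariate, and was tested on simulated data beforehand. The planned design allowed for counts, and its provision for normalized values applied. Depth was estimated from the steps between low values, within a preset range of steps. Other scalings, pseudocounts and filters, single-fit and curated-model versions, a replicate block and the omission of each library were tried. Tables and figures used matplotlib 3.10.9, scipy 1.17.1, pandas 2.3.3 and numpy 2.4.6 under Python 3.11.15. Sequences are from RefSeq promoters and from GENCODE transcripts matched to RefSeq models.

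The 10 members, the 3 lists (17 partners, 45 other co-signalling genes, 30 regulators) and the cell markers were chosen with earlier results of these data known. Named genes were all members, every partner, the 6 genes with the smallest adjusted p per comparison and list, and the 3 genes most like Cd274, Havcr2 and Cd86, apart from a few results that are not reported here. Whether same-numbered libraries share a mouse is not given in the labels. Same-numbered libraries correlated between -0.175 and 0.235 in their deviations from group means, which, with so few libraries, cannot settle it.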

Additional observations from a re-analysis of the deposited data

Results flagged for a closer look

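Among 51 named genes, 13 had 1 of the 4 tumor CD45+ libraries far from the other tumor libraries for the range of the group. Chance gives such a gap in about 5% of groups. It was tumor replicate 1 in 11 of the 13 and tumor replicate 3 in the other 2.

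Of the members, Cd274 was at 10.26 FPKM in tumor replicate 1, against 19.34 to 20.93 FPKM in the other tumor libraries. Cd276 was at 1.98 FPKM in tumor replicate 3, against 1.71 to 1.73 FPKM.

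The receptor genes Pdcd1 and Ctla4 were low in tumor replicate 1, where Pdcd1 was at 0.02 FPKM against 0.94 to 1.07, and Ctla4 at 0.33 FPKM against 2.35 to 2.6. The summed T and NK cell markers were 7.58 FPKM in that library and 51.0 to 52.2 FPKM in the other tumor libraries. Lta was at 0.67 FPKM in tumor replicate 3, against 0.31 to 0.36, and Igsf11 at 0.02 FPKM in tumor replicate 1, listed at 0 in the rest, which is about the level of a single fragment.

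In tumor replicate 1 Trem2 was at 717.34 FPKM against 429.5 to 446.48, Nt5e at 32.47 against 20.59 to 21.74, Nectin2 at 6.99 against 4.67 to 4.98, and Cd24a at 18.76 against 3.98 to 4.23. In the same library Fgl2 was at 21.61 FPKM against 87.0 to 92.34, Tnfsf9 at 34.42 against 125.83 to 131.49, and Cd200r1 at 21.56 against 25.3 to 25.74. The near-equality of tumor replicates 2 to 4 makes such gaps easier to reach. The summed granulocyte markers were 1770 FPKM in tumor replicate 1 and 67.9 to 75.4 FPKM in the other tumor libraries. The part of these markers in the gaps was not tested.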

How the results depend on the processing

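Of 408 alternative values of member differences, 368 kept their direction and side of the threshold, 20 lost the call, 11 gained one and 9 changed sign, and 193 of 220 counts stayed within 1.5 times. For splenic CD45+ against splenic CD45- libraries, 4912 genes were higher and 488 lower as deposited. With trimmed-mean scaling these were 2569 and 2365, and with median-ratio scaling 2554 and 2913. With a common sum 121 were lower, and without globin genes 882. Members called lower there numbered 2 with trimmed-mean scaling, 2 with median-ratio scaling and 1 without globin genes. Leaving out 1 library gave 206 to 1422 genes lower, 1 to 3 members higher and 0 to 1 lower. For tumor CD45+ against splenic CD45+ libraries, lower genes numbered 2986 as deposited, 1975 with a common sum and 1865 with tumor replicates 2 to 4 averaged, an alternative chosen after seeing the data, and 1 member was lower with curated models only. In tumor CD45+ against splenic CD45- libraries, lower genes numbered 2522 as deposited, 4895 with trimmed-mean scaling, 4665 with median-ratio scaling and 1621 with a common sum. Members called lower there numbered 2 with trimmed-mean scaling, 2 with median-ratio scaling and, with curated models only, 0 by limma (0 also at an unadjusted p below 0.05).

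Sign changes were as follows, as log2 differences. Vsir in splenic CD45+ against splenic CD45- libraries was -0.17 with trimmed-mean and -0.16 with median-ratio scaling. Vsir in tumor CD45+ against splenic CD45- libraries was -0.63 and -0.51 with these scalings and -0.10 without globin genes. Vsir in tumor CD45+ against splenic CD45+ libraries was 0.12 with a common sum. Lgals9 within the spleen was 0.29 with a common sum and ran from -0.18 to 0.070 when 1 library was left out (0.070 without splenic CD45+ replicate 2), and Tnfrsf14 in tumor CD45+ against splenic CD45+ libraries was 0.25 with curated models only. The cause was not tested.

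With the replicate number as a block, all genes called higher and lower were 4443 and 408 in splenic CD45+ against splenic CD45- libraries, 3421 and 2263 in tumor CD45+ against splenic CD45+, and 7557 and 2573 in tumor CD45+ against splenic CD45- libraries. The block changed no member's call. Some samples correlated best with their own number and others did not, which cannot tell whether same-numbered libraries share a mouse. Values below 1 FPKM, such as those of Pdcd1lg2 in tumor CD45+ and splenic CD45- libraries, rest on few fragments.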
